A study of Mus musculus with 6 samples.

Results

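The genes described here encode the machinery of mitosis: the cyclins and kinases that start it, the checkpoint that delays anaphase, the kinetochores that hold chromosomes to the spindle, the motors and bundling proteins of the spindle, and condensin. They were chosen by symbol from a list of 45 genes, drawn up with earlier results of these data known. Of these, 44 matched a row of a deposited table with 23793 rows. The remaining gene, Foxm1, has no row of its own there and is described separately. RNA came from i660BM, a line of mouse pro-B cells (C57BL/6) kept in medium with interleukin 7, in which doxycycline switches on the transcription factor PU.1. Of 6 libraries 3 were made from non-induced and 3 from induced cells, the latter after 48 h with 70 ng/ml of the drug. Cells of both groups carry the inducible PU.1 system, and all come from this single line. Doxycycline was never given without inducing PU.1, so effects of the drug and the factor cannot be told apart.

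Mitotic genes are transcribed in waves. Most are kept low in G1, begin to rise in S phase and peak in G2 and mitosis, and many of their products are then destroyed by the anaphase-promoting complex. Pro-B cells divide in response to interleukin 7, so this machinery is normally active in them. In a bulk RNA measurement a larger share of cells in G2 and mitosis and more RNA per cell cannot be told apart.

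For each gene the table lists 1 FPKM value (fragments divided by the length of the transcript and the depth of the library) in each group, and none per library. No standard deviation between libraries can therefore be given. An implied standard error was taken as the log2 change divided by the deposited Cuffdiff statistic. A gene is said to rise or to be called higher where the authors' deposited table gives a q-value under 0.05. Steps between the lowest values corresponded to about 117000000 fragments in the non-induced and 123000000 in the induced group. At that depth counting alone would give the members a standard error of at most 0.028 on the log2 scale, against a median implied standard error of 0.15.

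Spi1, which encodes PU.1, was at 36.0 FPKM before and 246 FPKM after induction, in the direction of the labels. Of 12 pro-B cell markers 11 were tested, and their summed level was 3825 FPKM before and 5353 FPKM after induction. The twelfth, Kit, a receptor of early precursors, was listed at 0 in both groups. The sum over 9 myeloid markers was 0.378 and 16.5 FPKM, of which Lyz2 held 15.2 FPKM in induced cells, with Elane, S100a8 and S100a9 listed at 0 in both groups. The 6 T cell markers in the table summed to 66.3 and 46.3 FPKM, with Cd3e and Cd4 listed at 0 in both groups and nearly all of the sum from the kinase gene Lck. The 3 erythroid markers with rows of their own summed to 0.280 and 0.232 FPKM. The part of these other transcripts in the results below was not tested.

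The mitotic genes were abundant in both groups, and 22 of the 44 rose by a modest amount after induction. All 44 were tested by the authors with Cuffdiff, 22 were called higher and 0 lower, and 40 had a higher value in induced cells. At an unadjusted p under 0.05 the counts were 27 higher and 0 lower. The background for these counts is that 19.0% of 10657 tested genes were called higher and 16.1% lower. Among the 5363 tested genes within the members' range of mean FPKM, 17.1% were called higher and 15.1% lower. The members' share called higher was 50%. Their median log2 change was 0.20, a median fold of 1.15, with a middle range from 0.12 to 0.29. The median log2 change over all tested genes was -0.01, with a middle range from -0.16 to 0.18.

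The change was larger than 1 implied standard error in 27 of the 44 members and larger than 3 in 3 of them, Kif23, Cenpa and Nusap1. Kif23 alone reached 1.5-fold, at 1.59-fold, where 6.34% of all tested genes were called with at least that rise and 3.85% with at least that fall. The called members had a median fold of 1.22. The calls rest on the authors' p-values, which are smaller than those a normal deviate of the deposited statistic would give. With normal p-values 3 members were called, Kif23, Cenpa and Nusap1, a share of 6.82% against 8.97% of all 10657 tested genes called higher and 6.16% lower in that way. Centring on the median of all tested genes left 3 members called, against 9.15% of all genes higher and 5.90% lower. At a q-value under 0.01 there were 14, against 14.8% and 11.1%, and among the 34 members whose locus holds no other row 17, against 20.6% and 18.0%. A 95% interval from the implied standard error lay above 0 for 11 of the 44 members, before any adjustment for multiple tests. Of the 44 rows 10 share a locus with another row, 5 of them called, and fragments of neighbouring or overlapping genes can have been split between such rows.

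**Figure D1:**
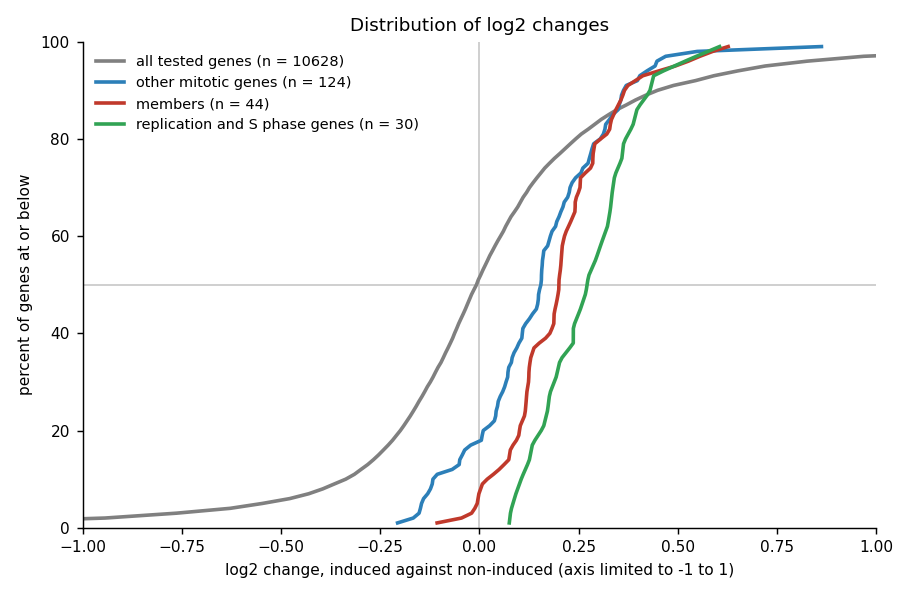
Cumulative percent of genes (vertical axis) at or below each log2 change of induced against non-induced cells (horizontal axis, limited to -1 to 1), for the members, other mitotic genes, replication and S phase genes, and all tested genes. The 3 cell cycle curves lie to the right of the curve of all tested genes around their middle, with a median of 0.20 for the members and -0.01 for all tested genes, and they are steeper.

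By level the members spanned from 13.7 FPKM for Cenpf, in non-induced cells, to 375 FPKM for Top2a, in induced cells. Top2a, Birc5, Ube2c and Ccna2 were the 4 most abundant in both groups, in a different order below Top2a. The median member stood at 73.7 FPKM before and 85.0 FPKM after induction, and the median percentile of their level among tested genes was 88.6. The order of levels was nearly the same in the groups, with a Spearman coefficient of 0.98 across the 44 genes, which share libraries and are not independent. Log2 change followed the mean level and the coding transcript length only loosely, with coefficients of 0.20 and 0.21 across the same genes.

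**Figure D2:**
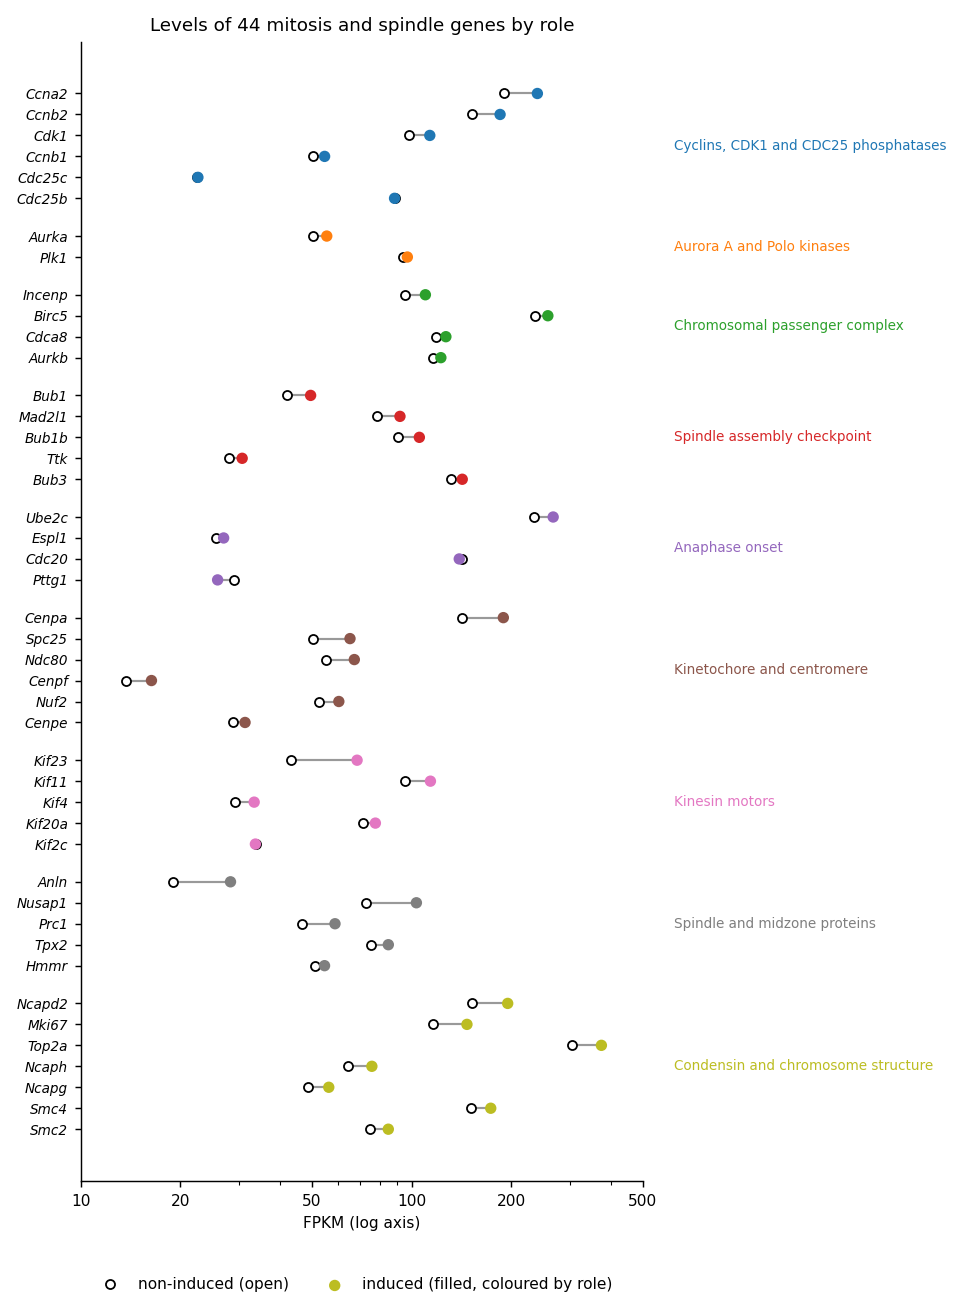
FPKM of each of 44 mitosis and spindle genes (log axis) in non-induced cells (open circles) and induced cells (filled circles, coloured by role), each the authors' value over 3 libraries. In 40 genes the filled circle lies to the right of the open one, with the widest step for Kif23, from 43.1 to 68.4 FPKM.

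The promoters of these genes share sequence elements that the choice of genes did not use. Many promoters of genes expressed in G2 and mitosis hold a cell cycle genes homology region, a short element bound by the MuvB core of the DREAM and B-MYB complexes, and CCAAT boxes bound by NF-Y. RefSeq windows (GRCm38.p6) from 250 bases before to 50 bases after the start were found for 37 of the 44 genes. The start is the RefSeq start, which can differ from the GENCODE M21 bounds of a gene. Bases 11 to 40 after it were found in the gene's own GENCODE M21 transcripts for 23 of 39 windows. A position before or after the start thus depends on the annotation. For genes with 2 windows, such as Bub3, positions and printed stretches come from the first. The windows were searched on both strands for TTTGAA or TTCGAA as the homology region element, for CCAAT, and for AGGAAGT, a PU.1 type site. A stretch that reads the same on both strands was counted once, and matches were allowed to overlap. A match describes the letters and says nothing of binding. Ccna2, Cdc25c, Aurkb, Incenp, Kif20a, Tpx2 and Smc4 had no entry.

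The homology region element was present in 29 of 37 members, or 79.5% of their 39 windows, against 19.2% of all 32851 RefSeq windows and 14.2% of the windows of genes tested by the authors. With only the bases upstream of the start counted, it was present in 41.0% of the members' windows, against 17.1% of all windows and 12.4% of those of tested genes. In the windows of replication and S phase genes its share was 21.4%, and in those of the other mitotic genes described further on 37.7%. CCAAT was present in 28 of 37 members, or 76.9% of their windows, against 37.4% of all windows, 75% of those of replication and S phase genes and 51.8% of those of the other mitotic genes. Both stood together in 26 members, or 71.8% of their windows, against 7.52% of all windows. That share was 21.9% for the other mitotic genes and 17.9% for replication and S phase genes. The PU.1 type site was present in 3 members, Kif23, Cenpa and Spc25, or 7.69% of the windows, against 9.35% of all windows. Of the 38 homology region matches 18 lay after the start, and 76.3% lay between 100 bases before it and the end of the window, against 41.4% of the matches in all promoters. The CCAAT boxes lay farther upstream, at a median position of -71, and 18 members held 2 or more.

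**Figure D3:**
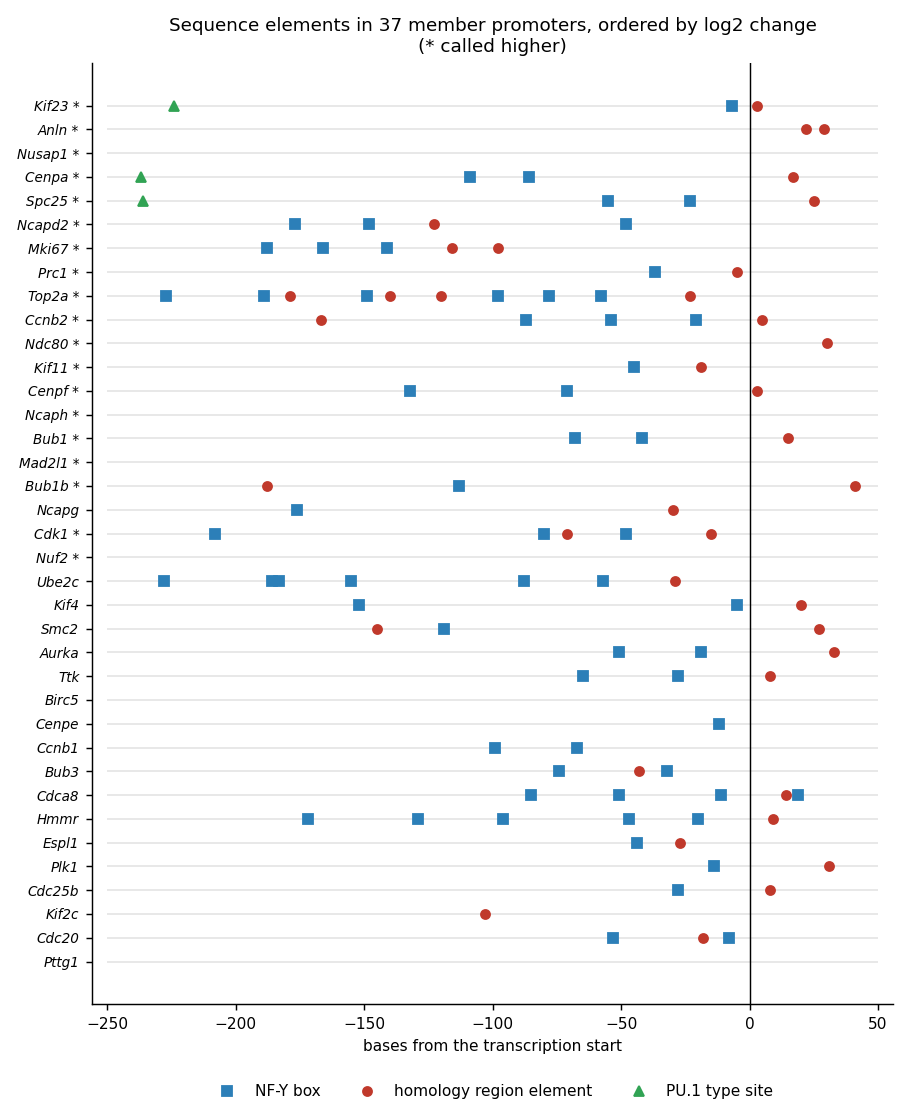
Positions of the homology region element (circles), the NF-Y box (squares) and the PU.1 type site (triangles) in 1 promoter window for each of 37 members, in bases from the transcription start, with genes ordered from the highest log2 change at the top and called genes starred. Circles gather around the start and squares upstream of it in called and in uncalled genes, and 6 genes have neither.

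The homology region element was present in 15 of 19 called and 14 of 18 uncalled members, and CCAAT in 13 and 15. The PU.1 type site was present in 3 of the 19 and 0 of the 18, a difference that was not tested. Median log2 change was 0.21 for the 29 genes with the element and 0.16 for the 8 without it, which include Nusap1, among the largest rises, and Pttg1, the lowest value. To show the arrangement, the last 120 bases before the start are given for members that held both elements there: the 3 called members with the largest rises (Top2a, Kif11, Cdk1) and the 3 uncalled members with the smallest differences (Cdc20, Espl1, Bub3). Each is written 5′ to 3′ on the strand of the gene, and capitals mark the homology region element and the CCAAT box on either strand.
Top2a (chr11:99024190-99024309, minus strand): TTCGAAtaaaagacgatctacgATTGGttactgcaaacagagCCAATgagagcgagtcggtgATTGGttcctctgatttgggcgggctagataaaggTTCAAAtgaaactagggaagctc
Kif11 (chr19:37376262-37376381, plus strand): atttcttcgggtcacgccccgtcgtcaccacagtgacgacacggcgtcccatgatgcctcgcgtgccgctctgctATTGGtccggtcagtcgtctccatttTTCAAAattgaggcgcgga
Cdk1 (chr10:69352913-69353032, minus strand): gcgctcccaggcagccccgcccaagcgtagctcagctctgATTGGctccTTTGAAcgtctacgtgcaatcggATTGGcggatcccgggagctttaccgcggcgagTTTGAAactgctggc
Cdc20 (chr4:118437344-118437463, minus strand): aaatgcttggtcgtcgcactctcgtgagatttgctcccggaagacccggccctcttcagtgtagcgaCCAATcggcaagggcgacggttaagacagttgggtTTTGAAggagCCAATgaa
Espl1 (chr15:102296173-102296292, plus strand): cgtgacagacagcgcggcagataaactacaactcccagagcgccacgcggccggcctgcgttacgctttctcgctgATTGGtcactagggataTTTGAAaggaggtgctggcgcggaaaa
Bub3 (chr7:131560250-131560369, plus strand): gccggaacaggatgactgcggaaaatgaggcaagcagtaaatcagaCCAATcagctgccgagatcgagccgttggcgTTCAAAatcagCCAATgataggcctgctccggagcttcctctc
In Kif11 the homology region element began at position -19 from the start, with a CCAAT box upstream at -45. In Cdc20 the element began at -18, with a CCAAT box on either side, at -53 and -8. Bub3 likewise held boxes at -74 and -32 around its element at -43. By GENCODE M21 bounds the printed Bub3 stretch lies wholly within the gene, which starts at 131560222. The stretches of Cdk1, Cdc20 and Espl1 lie partly within their genes by those bounds.

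Of the members with the homology region element, the 4 with the largest changes, Kif23, Anln, Cenpa and Spc25, held it just after the RefSeq start. By GENCODE M21 the Kif23 gene starts at 61946774 on the minus strand, and by that start its element lies upstream. Ncapd2 and Mki67, next by change, held it upstream, at -123 in the former and at -116 and -98 in the latter. Among uncalled members the element lay after the start in some, such as Cdc25b (base 8) and Plk1 (base 31). In others, such as Cdc20 (-18), it lay before the start. It began at base 3 in Kif23, base 22 and base 29 in Anln, base 17 in Cenpa and base 25 in Spc25, counted from 1 at the start. These sites are shown with 10 bases on either side and only the site itself in capitals. The Anln stretches overlap, so each holds the other element in small letters. The 3 PU.1 type sites follow, which lay at positions -237 to -224.
Kif23 (homology region element, chr9:61946782-61946807, minus strand): gattggcctgTTTGAAatgcgccggg
Anln (homology region element, chr9:22389170-22389195, minus strand): ggcgctgaaaTTCAAAttttgaacgg
Anln (homology region element, chr9:22389163-22389188, minus strand): aaattcaaatTTTGAAcggccgtggt
Cenpa (homology region element, chr5:30666892-30666917, plus strand): cgggtgatttTTTGAActgctggcga
Spc25 (homology region element, chr2:69206174-69206199, minus strand): cggtggagagTTTGAAattgaaagac
Spc25 (PU.1 type site, chr2:69206433-69206459, minus strand): gcaaggaagaAGGAAGTatatgtcata
Cenpa (PU.1 type site, chr5:30666639-30666665, plus strand): aaaacttttgAGGAAGTgagctctaca
Kif23 (PU.1 type site, chr9:61947007-61947033, minus strand): ccaaggctttACTTCCTtagaggttct
The PU.1 type site of Kif23 is on the other strand and reads ACTTCCT here.

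Of 6 genes for the cyclins, their kinase and its activating phosphatases, Ccna2, Ccnb2 and Cdk1 rose and 3 did not pass the test. Counts by role, here and below, stand against 19.0% of all tested genes called higher and 16.1% lower. Ccna2, cyclin A2, which acts in S phase and at mitotic entry, went from 191 to 240 FPKM, and its locus is shared with Exosc9 in the table. Ccnb2, a B-type cyclin, went from 152 to 185 FPKM, and Cdk1, the kinase they activate, from 98.4 to 113 FPKM. The log2 change listed in the authors' deposited table was 0.33 for Ccna2 (implied standard error 0.16, Cuffdiff q = 0.000800), 0.29 for Ccnb2 and 0.20 for Cdk1. Ccnb1, the other B-type cyclin, was not called, with 50.3 and 54.5 FPKM. Cdc25b and Cdc25c encode phosphatases that remove inhibitory phosphates from CDK1. Cdc25b stood at 88.9 and 88.8 FPKM and Cdc25c at 22.4 and 22.6 FPKM, with a 95% interval on the log2 scale of -0.41 to 0.41 for Cdc25b and -0.27 to 0.29 for Cdc25c. The Cdc25b row shares its locus with 12 other rows and has the third largest implied standard error of the members, 0.21.

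The Aurora A and Polo kinases were not called. Aurka, which acts at centrosomes and spindle poles, stood at 50.3 and 55.4 FPKM. Plk1, which acts at centrosomes, kinetochores and the midzone, stood at 94.1 and 97.0 FPKM, with a 95% interval on the log2 scale of -0.21 to 0.30. Both values were higher in induced cells by less than their implied standard error.

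The chromosomal passenger complex corrects faulty attachments and later guides cytokinesis. Its 4 genes had higher values in induced cells, and 1 was called, or 25%, near the 19.0% of all tested genes called higher. Incenp, the scaffold, went from 95.2 to 110.0 FPKM, and the authors' deposited table gave a log2 change of 0.21 (implied standard error 0.14, Cuffdiff q = 0.0393). Aurkb, its kinase, stood at 116 and 123 FPKM, Birc5, which encodes survivin, at 237 and 258 FPKM, and Cdca8, which encodes borealin, at 118 and 127 FPKM. The log2 changes of these 3 lay between 0.08 and 0.12.

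Of the 5 spindle assembly checkpoint genes, whose products hold back anaphase until kinetochores are attached, 3 were called higher. Bub1, a kinase of the outer kinetochore, went from 41.9 to 49.5 FPKM. Mad2l1, which encodes MAD2, the inhibitor of CDC20, went from 78.6 to 92.2 FPKM. Bub1b, which encodes BUBR1, another part of that inhibitor, went from 90.8 to 105 FPKM. Their log2 changes were 0.24, 0.23 and 0.22 in the authors' deposited table, each with an implied standard error of 0.14 to 0.15, and Bub1 had a Cuffdiff q of 0.0153. Bub3, their binding partner, stood at 131 and 142 FPKM, and Ttk, the kinase MPS1 that starts the signal, at 28.1 and 30.7 FPKM. Neither was called.

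Genes of anaphase onset, which act after the checkpoint is satisfied, had 0 of 4 called by Cuffdiff, with Ube2c alone at an unadjusted p under 0.05. The difference from the 19.0% of all tested genes called higher was not tested. Ube2c, which encodes the ubiquitin-conjugating enzyme of the anaphase-promoting complex, stood at 234 and 268 FPKM and was just short of the threshold in the authors' deposited table (log2 change 0.19 with 0.12 as its implied standard error, Cuffdiff q = 0.0548). Cdc20, the activator of that complex, stood at 142 and 139 FPKM. Espl1, which encodes separase, the protease that cuts cohesin, stood at 25.7 and 27.0 FPKM. Pttg1, which encodes securin, the inhibitor of separase, stood at 29.1 and 25.9 FPKM, the lowest log2 change of the members at -0.17 (implied standard error 0.17, Cuffdiff q = 0.168) in the authors' deposited table. Cdc20, Pttg1, Kif2c and Cdc25b were the 4 members with a lower value in induced cells, and none of them was called.

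**Figure D4:**
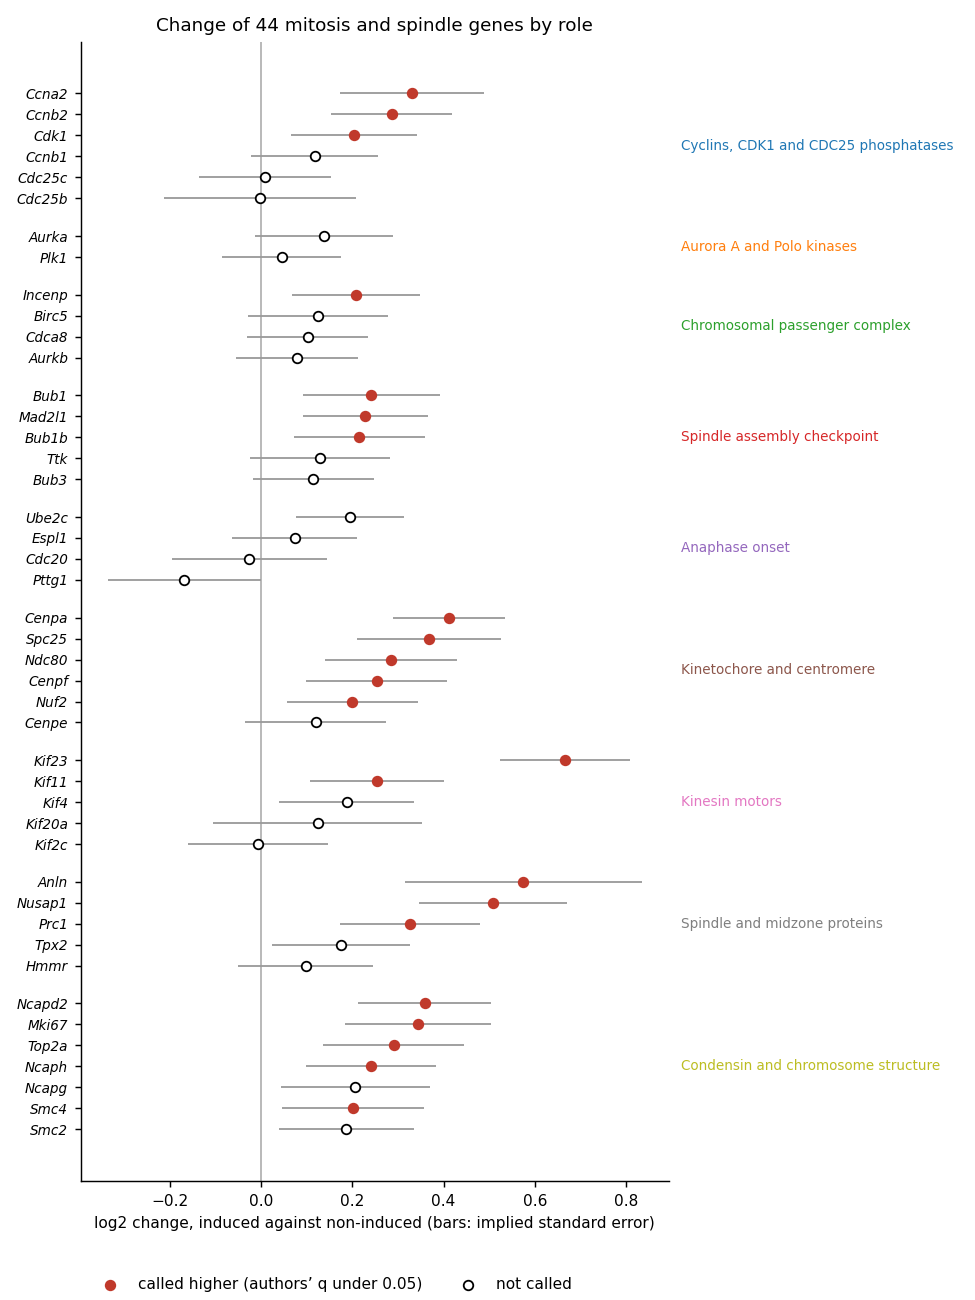
Log2 change of induced against non-induced cells for 44 mitosis and spindle genes grouped by role, with bars of 1 implied standard error, red points for genes called higher by the authors' q-value and open points for the rest. Kif23 at 0.67, Anln at 0.57 and Nusap1 at 0.51 stand farthest to the right, and the anaphase onset genes, from -0.17 to 0.19, hold no red point.

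Kinetochore and centromere genes were called most often of the roles with more than 2 genes, 5 of 6, against 19.0% of all tested genes called higher. The difference between roles was not tested. Cenpa, the histone H3 variant that marks the centromere, went from 142 to 189 FPKM, and the authors' deposited table gave a log2 change of 0.41 (implied standard error 0.12, Cuffdiff q = 0.000287). Of the NDC80 complex, which binds microtubules, 3 subunit genes are members and rose: Spc25 from 50.4 to 65.1 FPKM, Ndc80 from 55.0 to 67.1 FPKM and Nuf2 from 52.4 to 60.2 FPKM. The fourth subunit gene, Spc24, is no member and was not called, with 46.1 and 52.8 FPKM. Nuf2 was called by a small margin in the authors' deposited table (Cuffdiff q = 0.0465). Cenpf, a large protein of the outer kinetochore, went from 13.7 to 16.3 FPKM. Cenpe, a kinetochore kinesin that brings chromosomes to the spindle equator, was not called, with 28.9 and 31.4 FPKM.

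Among the kinesin motors Kif23 and Kif11 were called and 3 were not. Kif23 encodes a subunit of centralspindlin, the complex that bundles midzone microtubules and directs cytokinesis. It went from 43.1 to 68.4 FPKM, a fold of 1.59 and the largest of the members, and the authors' deposited table gave a log2 change of 0.67 (implied standard error 0.14, Cuffdiff q = 0.000287). Its gene lies on the minus strand of chromosome 9 at 61915905 to 61946774 (GENCODE M21, mm10) and shares its locus with no other row. Kif11, which encodes the motor that pushes spindle poles apart, went from 95.5 to 114 FPKM (log2 0.25 in the authors' deposited table). Kif4, a chromosome-bound motor that also acts in the midzone, stood at 29.3 and 33.4 FPKM and missed the threshold narrowly (implied standard error 0.15, Cuffdiff q = 0.0636 in the authors' deposited table). Kif20a, a motor of cytokinesis, stood at 71.3 and 77.7 FPKM, and its locus is shared with Brd8 and Cdc23. Kif2c, a depolymerase that corrects attachments at the centromere, stood at 33.8 and 33.7 FPKM.

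Spindle and midzone proteins other than motors had 3 of 5 genes called higher. Anln encodes anillin, which organises the contractile ring. It went from 19.0 to 28.3 FPKM, a fold of 1.49, but its implied standard error of 0.26 was the largest of the members, and its row shares a locus with 14 other rows. The authors' deposited table gave it a Cuffdiff q of 0.000800. Nusap1, a microtubule-bundling protein of the spindle, went from 72.7 to 103 FPKM, and the authors' deposited table gave a log2 change of 0.51 (implied standard error 0.16, Cuffdiff q = 0.000287). It shares its locus with Oip5 in the table. Prc1, which crosslinks antiparallel microtubules in the midzone, went from 46.7 to 58.6 FPKM. Tpx2, an activator of Aurora A, stood at 75.3 and 85.0 FPKM (implied standard error 0.15, Cuffdiff q = 0.0880 in the authors' deposited table), and Hmmr, a spindle pole protein, at 50.9 and 54.5 FPKM.

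Condensin I folds chromosomes for division, and all 5 of its genes had values higher by 1.14- to 1.28-fold. Ncapd2 (152 to 195 FPKM), Ncaph (64.1 to 75.8 FPKM) and Smc4 (151 to 173 FPKM) were called. Smc2 (74.6 and 85.0 FPKM) and Ncapg (48.7 and 56.1 FPKM) were not, with Cuffdiff q-values of 0.0655 and 0.0732 in the authors' deposited table and implied standard errors of 0.15 and 0.16. Ncapg shares its locus with 2 rows, and Smc4 with the microRNA rows Mir15b and Mir16-2 hosted in it. Top2a, topoisomerase II alpha, which untangles sister DNA, went from 306 to 375 FPKM. Mki67, the proliferation marker Ki-67 that coats mitotic chromosomes, went from 116 to 147 FPKM. The authors' deposited table gave a log2 change of 0.36 for Ncapd2, 0.34 for Mki67 and 0.29 for Top2a, with implied standard errors of 0.15 to 0.16, and Ncapd2 had a Cuffdiff q of 0.000287.

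Foxm1, which encodes a transcription factor of G2 genes, is listed in a row that also carries the symbol 4933413G19Rik. That row went from 51.7 to 67.2 FPKM, and the authors' deposited table gave a log2 change of 0.38 (implied standard error 0.14, Cuffdiff q = 0.000287). The value cannot be split between the symbols.

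Further genes of the same pathways were also examined. Of 126 listed genes that are no members, 124 were in the table and tested, 40 were called higher and 2 lower, against the background of 19.0% and 16.1%. That is 32.3% called higher, against 50% of the members, a difference that was not tested, with a median log2 change of 0.15, and 102 of the 124 had a higher value in induced cells. The lists are not independent of the members, since complexes are split between them. Like the members, they were chosen with earlier results of these data known.

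Condensin II, the relative of condensin I that acts from early prophase, shares Smc2 and Smc4 with it. The 3 genes for its own subunits rose, with Ncapd3 (23.2 to 31.5 FPKM) and Ncapg2 (30.7 to 39.5 FPKM) ahead. Of 32 other kinetochore and centromere genes 11, or 34.4%, were called higher and 0 lower, against 19.0% and 16.1% of all tested genes. Cenpt, which links the inner kinetochore to NDC80, went from 18.0 to 52.9 FPKM. With 1.55 as its log2 change (implied standard error 0.14, Cuffdiff q = 0.000287) in the authors' deposited table, it exceeded every member. Cenpm, of the same inner network, went from 25.9 to 38.8 FPKM.

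Among 28 other spindle, motor and cytokinesis genes 9, or 32.1%, were called higher and 0 lower, against 19.0% and 16.1% of all tested genes. Racgap1, which encodes the partner of KIF23 in centralspindlin, went from 71.7 to 97.7 FPKM. Cit, which encodes the citron kinase of the midbody, went from 6.63 to 8.74 FPKM. Of 15 cohesin genes 5, or 33.3%, were called higher, led by Stag2 (55.5 to 71.7 FPKM) and the shugoshin gene Sgol2 (15.4 to 19.2 FPKM). Of 8 centriole duplication genes 4, or 50%, were called higher, led by Cenpj (7.18 to 9.53 FPKM) and, by a smaller change, Stil (14.2 to 17.0 FPKM).

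Of 13 mitotic entry regulators 6 were called higher and 2 lower, or 46.2% and 15.4%, against 19.0% and 16.1% of all tested genes, so the share called lower was near the background. Pkmyt1, which encodes a kinase that inhibits CDK1, went from 28.3 to 54.5 FPKM, and the authors' deposited table lists a log2 value of 0.95 for it, with 0.14 as its implied standard error. Pbk, a mitotic kinase, went from 78.1 to 105 FPKM. Cks1b, which encodes a small CDK-binding subunit, fell from 294 to 248 FPKM, and Gtse1, which encodes a microtubule-binding protein of G2, from 54.0 to 46.5 FPKM.

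Of 14 genes of the anaphase-promoting complex 1 was called higher, Anapc11 (9.97 to 12.1 FPKM), and the median log2 change was -0.05. Of 11 MuvB, B-MYB and DREAM genes 1 was called higher, Rbl1, which encodes p107 (30.6 to 43.6 FPKM), and the median log2 change was 0.05. These counts are 7.14% and 9.09%, and their difference from the 19.0% of all tested genes was not tested.

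**Figure D5:**
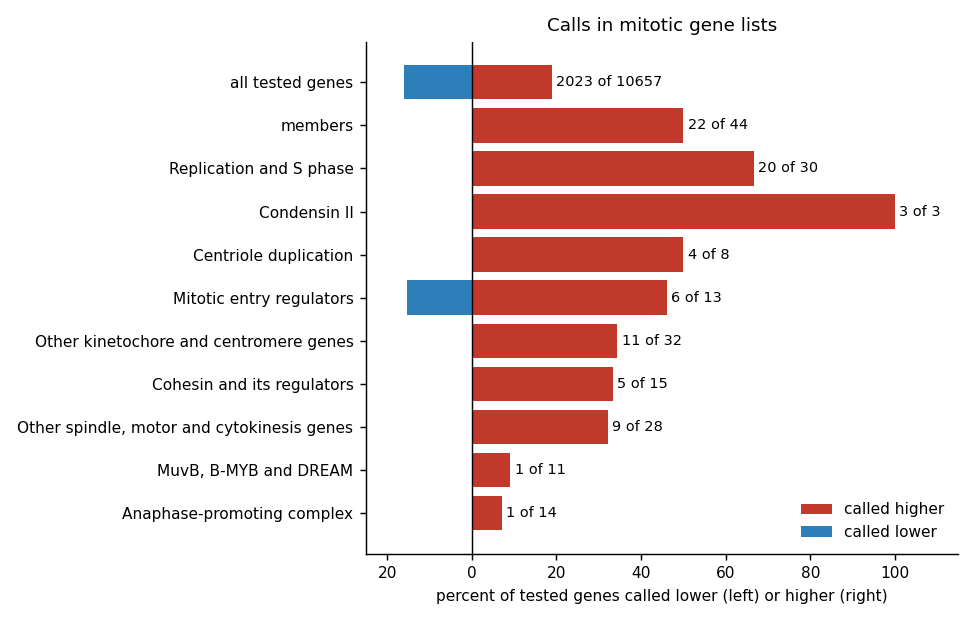
Percent of tested genes called lower (left of 0) or higher (right of 0) in each list, with the number called higher of the number tested beside each bar. The members (22 of 44) and the replication and S phase genes (20 of 30) stand above all tested genes (2023 of 10657), and the anaphase-promoting complex (1 of 14) stands below.

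Replication and S phase genes act in the part of the cycle just before. Of 30 such genes 20, or 66.7%, were called higher and 0 lower, against 19.0% and 16.1% of all tested genes. The median log2 change was 0.27 against 0.20 for the members. These calls also rest on the authors' p-values, and this list was not part of the alternative runs, such as that with normal p-values. Uhrf1 (137 to 212 FPKM), which maintains DNA methylation at replication forks, and Cdt1 (45.6 to 65.9 FPKM), which licenses origins, led this list. The difference between the lists was not tested.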

How the data were processed

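Stranded mRNA libraries were made from 3 non-induced and 3 induced samples, per the labels' protocols. Whether replicate libraries are separate cultures is not stated in the labels, and p-values may then reflect technical spread alone. The submitters' processing notes list Trim Galore 0.2.8.1, TopHat2 2.0.9, Cufflinks, Cuffdiff 2.1.1 and mm10. Annotation and strand setting: not given in the sources used here.

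As deposited, the table gives FPKM by group, log2 fold change, Cuffdiff's statistic (used as a score), p-value and q-value, per the file headers. The authors tested 10657 of 23793 rows. Recomputing Benjamini-Hochberg values from the deposited p-values moved no q-value by more than 5.15e-07. No p-value in the table is below 5e-05. The members and lists were chosen with earlier results of these data known, and lists were described by counts and medians.

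Every member's group values were printed. Error and q-value were given for the called member with the largest change in each role and for those with q from 0.05 to 0.1, and lists were illustrated by up to 2 called genes per direction. The promoter stretches and short sites were chosen for display after their values were seen. Depth was estimated from steps of FPKM multiplied by length for genes with 1 annotated transcript (GENCODE M21). Of these low values 71.2% and 66.4% lay within 0.15 of whole fragments, where an even spread would give 30%. Alternatives covered the q-value threshold, normal p-values, a 1.5-fold minimum, a minimum of 5 FPKM, shared loci, centring, a pseudocount of 1 and the promoter window. Python 3.11.15, pandas 2.3.3, numpy 2.4.6, scipy 1.17.1 and statsmodels 0.14.6 were used. Calling from normal p-values was tested on simulated data, and calling from the authors' q-values was not.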

Additional observations from a re-analysis of the deposited data

How the results depend on the processing

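In each alternative run 0 members were called lower. Most of these runs filtered the same changes, and 0 members were lower at an unadjusted p under 0.05, so they could not have given a lower call. The number called higher varied. It was 22 with the authors' q-values under 0.05 and 14 at a q-value under 0.01, where 30 of the other mitotic genes were called higher and 0 lower. At 0.01 the shares called higher were 31.8% and 24.2%, against 14.8% of all tested genes higher and 11.1% lower. With normal p-values 3 members and 10 other mitotic genes were called higher, and 0 of the others lower, so that the shares called higher, 6.82% and 8.06%, lay below the 8.97% of all tested genes. The counts were the same, 3, 10 and 0, after centring on the median of all tested genes. With a 1.5-fold minimum 1 member, Kif23, and 2 other mitotic genes, Cenpt and Pkmyt1, were called higher and 0 lower. The shares called higher, 2.27% and 1.61%, lay below the 6.34% of all tested genes, of which 3.85% were called lower. Without rows that share a locus 17 of 34 members were called higher, with the shared Foxm1 row 23 of 45 (added after seeing the data), and over genes within the members' range of mean FPKM, also added later, 21 of 44, against 16.9% of those genes higher and 14.4% lower. The members' median log2 change stayed between 0.20 and 0.21 under a pseudocount of 1, a minimum of 5 FPKM and centring. Counting only bases upstream of the start, 40.5% of members in place of 78.4% held the homology region element, against 19.6% of all RefSeq genes, 14.8% of tested genes and 31.3% of other mitotic genes, since 18 of its 38 matches lie after the start. No paired analysis was possible because the table holds 1 value per group, and for the same reason no library could be left out. Depth is approximate and known per group only.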
